A study of Mus musculus with 6 samples.

Results

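The genes described here are 37 interferon response genes, chosen by name and not by a measured value, out of 13932 genes in the deposited gene table. The choice was made with earlier results of these data known. All 37 were found and all 37 passed the filter on low counts, which left 13905 genes for testing. The deposited table of splice junctions held 361 rows for 36 of these genes, out of 151811 rows in all. Ifit3 had no junction row.

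RNA was sequenced from common myeloid progenitors, sorted as donor-derived, lineage-negative, c-Kit+, Sca-1-, CD34+ and Fcgamma- bone marrow cells. The 3 S34F libraries came from mice that received U2AF1(S34F)/rtTA marrow and the 3 WT libraries from mice that received U2AF1(WT)/rtTA marrow. Both genotypes therefore carried an inducible U2AF1 transgene and the rtTA activator, and both were given doxycycline chow for 5 days, after more than 6 weeks of engraftment. Each library pooled 4 to 5 mice, so p-values measure the spread between pools. The sources used here give neither the promoter that drives rtTA nor the age and strain of the mice. U2AF1 is a splicing factor that reads the AG where an intron ends. Its S34F form is a recurrent mutation of myelodysplastic syndromes.

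Interferons are secreted proteins that bind a cell surface receptor and act through JAK kinases and STAT proteins. These act on promoter elements called ISRE, to which IRF9 directs STAT2, and GAS. The genes switched on in this way sense foreign nucleic acid, degrade or edit RNA, block translation, and shut the response down again. In bone marrow, interferon is known to act on blood stem and progenitor cells.

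Of the 37 interferon response genes, 1 passed a test adjusted over all genes, Trim21, by DESeq2 only. EdgeR's quasi-likelihood test called 0 of 37, and the lowest adjusted p was 0.523. The same test called 0% of all genes. At an unadjusted p under 0.05 there were 6 members of 37 (16.2%), all lower in S34F, against 9.1% of all genes (4.7% lower and 4.39% higher). DESeq2 called 1 member, Trim21, which was lower in S34F, against 0.689% of all genes (0.445% lower). Values were below 0 for 25 members and above 0 for 12, and 50.9% of all genes were below 0. The median log2 fold change was -0.16 over the members and -0.01 over all genes. The median over the members was -0.054 without WT library 3 and -0.091 without S34F library 3.

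The 3 S34F and 3 WT libraries did not overlap for 7 members, each of them lower in S34F, against 15.6% of all genes (8.47% lower). They were Irf1, Isg15, Trim21, Mx2, Gbp2, Ifi35 and Samd9l. No member (0 of 37) was higher in all 3 S34F libraries than in every WT library, where 7.16% of all genes were. With same-numbered libraries set against each other, 10 members were lower in S34F in all 3 comparisons and 3 were higher, where 19% and 17.4% of all genes were. Samples share a number only by their titles.

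**Figure D1:**
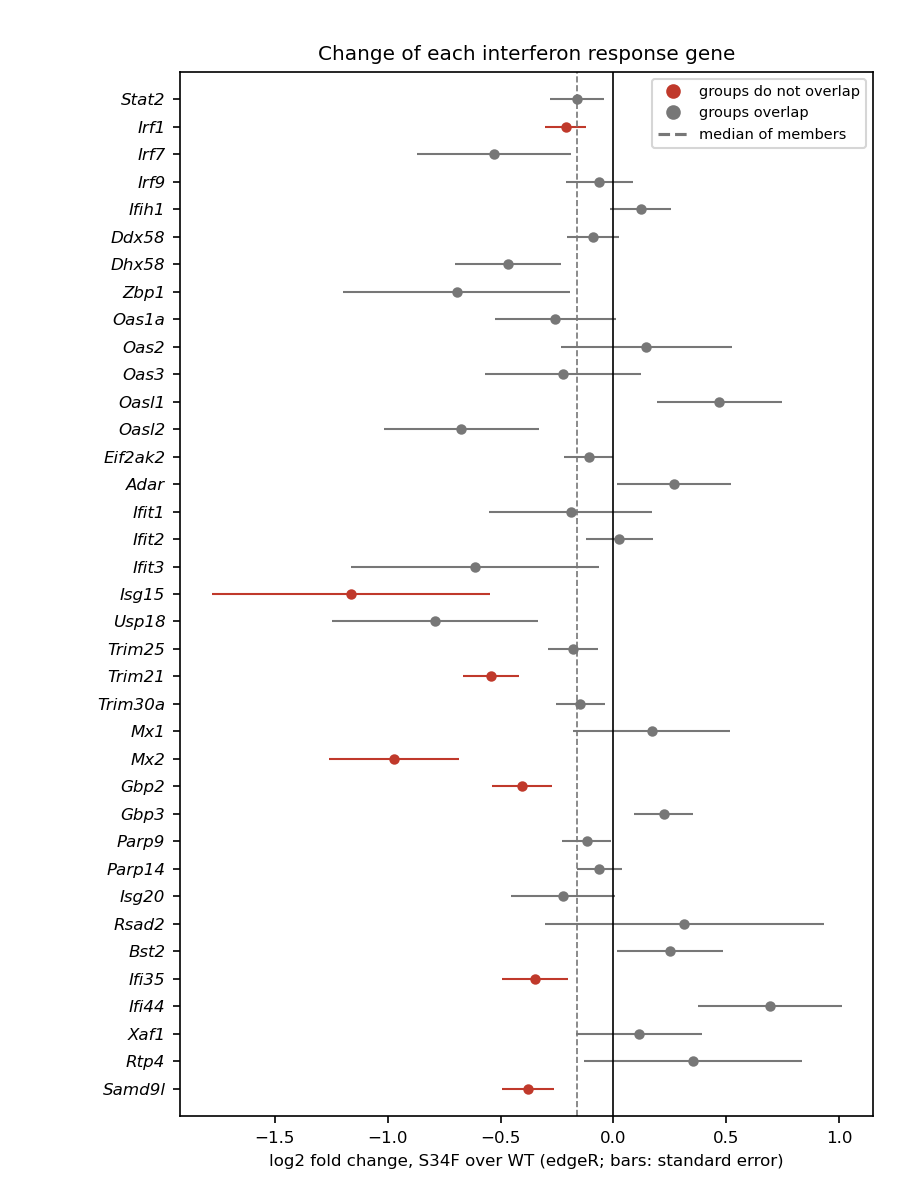
Log2 fold change of each of the 37 genes, S34F over WT, from edgeR, with the standard error as bars and red points for genes whose groups do not overlap. The 25 points left of 0 and the 12 right of it lie mostly within 1 log2 unit, and the dashed line marks the median of -0.16.

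Trim21 encodes an E3 ubiquitin ligase that binds antibodies inside the cell. Its level was 26.9, 21.9 and 26.6 CPM (counts scaled to a common library size) in the S34F libraries and 33.9, 37.8 and 38.1 CPM in the WT libraries. All 3 S34F libraries were lower than every WT library. The mean was 25.1 ± 2.79 CPM in S34F against 36.6 ± 2.36 CPM in WT (SD, n = 3), a log2 fold change of -0.54 with a standard error of 0.12. EdgeR gave an adjusted p of 0.523 and DESeq2 an adjusted p of 0.0314. In the authors' deposited table Trim21 had an adjusted p of 0.0329. The authors' headers name DESeq as their gene test, and the libraries are the same, so that value is no separate evidence. DESeq2 no longer called Trim21 when a single library was left out, except without WT library 1. The gene lies on mm9 chr7:109706436-109713983, on the minus strand.

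Gbp2 and Mx2 are interferon-induced GTPases, of which Gbp2 attacks the vacuoles of intracellular pathogens and Mx2 blocks viruses. Gbp2 was at 21.2, 22.2 and 20.1 CPM in S34F, against 23.7, 30.7 and 29.6 CPM in WT. Its log2 fold change was -0.40 with a standard error of 0.13 (edgeR unadjusted p = 0.0168, adjusted p = 0.538). Mx2 was at 1.78, 1.75 and 1.68 CPM in S34F against 3.64, 2.24 and 4.34 CPM in WT. The S34F libraries were close together and the WT libraries were spread out. Its log2 fold change was -0.97 with a standard error of 0.29 (edgeR unadjusted p = 0.0102, adjusted p = 0.538). Neither was called by edgeR or DESeq2 over all 6 libraries, and DESeq2 called Mx2 without WT library 2.

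Samd9l, a gene mutated in inherited marrow failure, was at 74.0, 67.5 and 82.3 CPM in S34F against 87.9, 106.2 and 96.4 CPM in WT. Its log2 fold change was -0.38 with a standard error of 0.12. Irf1, a transcription factor of the interferon pathway, was at 89.2, 91.2 and 94.4 CPM in S34F against 98.1, 107.9 and 112.2 CPM in WT. The S34F library highest in Irf1 was just below the lowest WT library, and the log2 fold change was -0.21 with a standard error of 0.09. Ifi35, which binds the interferon-induced protein Nmi, was at 25.4, 28.6 and 27.6 CPM in S34F against 31.9, 30.2 and 41.8 CPM in WT. Its log2 fold change was -0.35 with a standard error of 0.15. The edgeR adjusted p was 0.538 for Samd9l and 0.548 for Irf1 and Ifi35. Exons of Irf1 and Ifi35 overlap a gene on the opposite strand, and the sources used here do not say whether counting used the strand.

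Isg15, a ubiquitin-like protein that is joined to other proteins, was among the least abundant members. It had 41, 6 and 30 reads in the S34F libraries against 45, 57 and 166 in the WT libraries. Scaled, its level was 0.785, 0.129 and 0.594 CPM in S34F against 0.816, 0.802 and 1.77 CPM in WT. S34F library 1 was close to WT libraries 1 and 2, while WT library 3 stood above and S34F library 2 below the rest. The log2 fold change was -1.16 with a standard error of 0.62 (edgeR unadjusted p = 0.0983). On mm9, Irf1 lies at chr11:53583516-53591876, Isg15 at chr4:155573533-155574927, Mx2 at chr16:97757690-97782506 and Gbp2 at chr3:142283566-142300972. Ifi35 lies at chr11:101309721-101320012 and Samd9l at chr6:3322257-3349571.

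**Figure D2:**
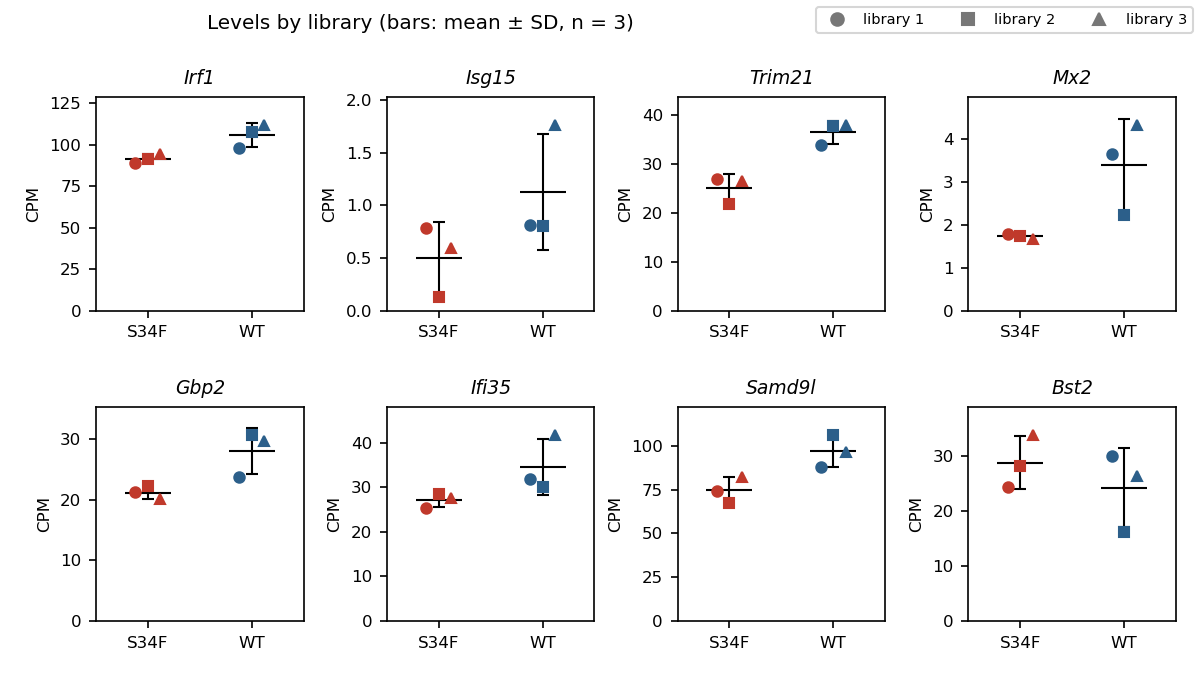
CPM in each library for the 7 genes whose groups do not overlap, and for Bst2, with mean and SD bars (n = 3), each axis starting at 0. Trim21 shows the S34F libraries between 21.9 and 26.9 CPM and the WT libraries between 33.9 and 38.1 CPM.

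The promoters of 3 genes are shown because their genes had S34F levels below WT and hold the ISRE letters. They are RefSeq promoters from build GRCm38.p6, 250 bases before to 50 after the start, with the ISRE letters in capitals (GAAA, any 2 bases, GAAA, on either strand, where matches may overlap). Trim21 lies on the minus strand at chr7:102565433-102565732, Isg15 on the minus strand at chr4:156200769-156201068 and Gbp2 on the plus strand at chr3:142620413-142620712.
Trim21: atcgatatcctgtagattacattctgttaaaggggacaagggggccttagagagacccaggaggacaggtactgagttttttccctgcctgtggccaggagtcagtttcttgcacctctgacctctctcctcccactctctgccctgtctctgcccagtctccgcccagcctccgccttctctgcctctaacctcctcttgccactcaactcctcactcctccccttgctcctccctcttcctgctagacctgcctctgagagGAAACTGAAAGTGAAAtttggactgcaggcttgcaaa
Isg15: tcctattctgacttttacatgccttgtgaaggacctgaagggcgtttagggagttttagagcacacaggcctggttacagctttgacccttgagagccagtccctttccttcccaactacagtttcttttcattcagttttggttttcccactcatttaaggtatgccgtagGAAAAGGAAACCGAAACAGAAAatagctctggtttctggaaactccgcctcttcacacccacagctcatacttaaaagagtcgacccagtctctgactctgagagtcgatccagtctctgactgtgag
Gbp2: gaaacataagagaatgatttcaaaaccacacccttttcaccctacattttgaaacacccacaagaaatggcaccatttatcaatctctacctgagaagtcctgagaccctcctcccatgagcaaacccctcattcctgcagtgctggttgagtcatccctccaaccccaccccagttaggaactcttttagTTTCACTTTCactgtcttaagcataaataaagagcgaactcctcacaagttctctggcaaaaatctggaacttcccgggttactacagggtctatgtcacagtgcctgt

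Of the 37 genes, 28 matched a promoter in the RefSeq table, and 15 of these (53.6%) held the ISRE letters on either strand. Among all genes with a promoter there, 3.99% did. The GAS letters (TTC, any 3 bases, GAA) occurred in 8 of the 28 members (28.6%) and in 9.55% of all genes. In the promoters of Trim21, Isg15 and Gbp2, matches started at positions 13 and 19, at -78, -72 and -66, and at -59, with the start site as 0. The median log2 fold change of S34F over WT was -0.16 over the 15 members with the ISRE letters and -0.18 over the 13 without.

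The remaining members are described by role. Among the transcription factors, Stat2 was at 30.8 ± 0.644 CPM in S34F against 34.4 ± 4.12 CPM in WT, and Irf9 at 52.9 ± 1.9 and 55.2 ± 10.7 CPM. Irf7, which drives interferon alpha genes, was at 4.59 ± 0.477 CPM in S34F against 6.62 ± 2.93 CPM in WT (SD, n = 3). All 4 transcription factors had values below 0, but none was called. The exons of Irf9 overlap those of Rnf31 on the same strand, and those of Irf7 overlap Phrf1 on the opposite strand.

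The sensors of foreign RNA and DNA split 3 below 0 and 1 above. Ifih1 and Ddx58, which recognise viral double-stranded RNA, were at 35.2 ± 3.28 and 30.0 ± 2.26 CPM in S34F against 32.4 ± 4.4 and 31.9 ± 2.54 CPM in WT. Dhx58, their relative, was at 10.8 ± 0.73 and 14.9 ± 4.7 CPM. Zbp1, a sensor of left-handed nucleic acid, was at 1.26 ± 0.265 and 2.04 ± 1.3 CPM.

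The OAS family makes a messenger that activates the ribonuclease RNase L, although Oasl1 acts in other ways. Oas1a was at 18.6 ± 4.88 CPM in S34F against 22.2 ± 7.5 CPM in WT. The other 4 stayed under 9 CPM in group means, with log2 fold changes from -0.67 for Oasl2 to 0.47 for Oasl1. Eif2ak2, the kinase that stops translation on double-stranded RNA, was at 76.4 ± 4.87 and 82.4 ± 8.19 CPM. Adar, which edits adenosine in double-stranded RNA, was at 95.4, 75.7 and 88.3 CPM in S34F against 103.2, 49.6 and 62.8 CPM in WT. WT library 1 was highest and WT library 2 lowest for Adar.

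IFIT proteins bind RNA and limit its translation. Ifit2 was at 44.2 ± 4.65 CPM in S34F against 43.4 ± 7.39 CPM in WT, far above Ifit1 at 1.87 ± 0.681 and 2.12 ± 0.585 CPM. Ifit3 was the lowest member, at 0.301 ± 0.0653 and 0.458 ± 0.283 CPM. Reads of these related genes can be shared with close paralogs, so low levels of IFIT, OAS, Mx and Gbp genes are uncertain. Usp18, which removes ISG15 and dampens the receptor, was at 2.59 ± 0.401 and 4.47 ± 2.88 CPM. Trim25, a ligase that acts on Ddx58, was at 67.3 ± 4.05 and 76.1 ± 8.47 CPM, and Trim30a at 93.0 ± 5.74 and 102.9 ± 10.8 CPM.

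Mx1 and Gbp3, GTPases like Mx2 and Gbp2, had values above 0, with log2 fold changes of 0.17 and 0.22. Parp9 and Parp14, which attach or bind ADP-ribose, had values of -0.12 and -0.06. Of the 8 other effectors, 5 were above 0. Ifi44 had the highest value, 0.69 with a standard error of 0.32, from 9.61, 5.22 and 5.53 CPM in S34F against 2.99, 4.14 and 5.43 CPM in WT. Rsad2, which makes a chain-terminating nucleotide, had a value of 0.31, Rtp4 0.35, Bst2 0.25, Xaf1 0.11 and Isg20, an RNA exonuclease, -0.22. None of these was called by edgeR or DESeq2.

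Per length, in the authors' FPKM, Irf1 was the highest member with a mean of 27.3 over the 6 libraries and Bst2 was next with 20.4. Irf1 ranged from 18.1 to 37.6 FPKM and Bst2, which tethers viruses to the cell surface, from 13.6 to 26.1 FPKM, so these neighbours overlapped. Bst2 was at 24.3, 28.3 and 33.8 CPM in S34F against 30.1, 16.2 and 26.4 CPM in WT. Gbp3 followed at 18.5 FPKM, and Oas2, Ifit1 and Rsad2 were lowest, at 0.300, 0.300 and 0.335 FPKM. Ifit3 had no FPKM.

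A different pattern ran between WT libraries. WT library 3 was the highest of the 6 libraries for 22 of 37 members, against 21% of all genes, and WT library 2 was the lowest for 15, against 20.6%. Within WT, library 3 exceeded library 2 for 33 members, where 52.5% of all genes did. It exceeded it more than 2-fold for 11 members, where 1.71% of all genes did. These were Irf7, Zbp1, Oas2, Oas3, Oasl2, Ifit3, Isg15, Usp18, Mx1, Rsad2 and Rtp4. WT libraries 3 and 2 were the libraries most often highest and lowest for these same members. The shares over all genes given for this pair do not allow for that choice.

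All 11 were among the 16 members with a mean under 10 CPM, a level at which 4.41% of all genes exceeded 2-fold. Usp18 was at 2.91, 2.72 and 2.14 CPM in S34F against 3.81, 1.97 and 7.62 CPM in WT. Irf7 was at 4.98, 4.06 and 4.73 CPM in S34F against 7.25, 3.43 and 9.19 CPM in WT. For both genes the 3 S34F libraries lay between WT library 2 and WT library 1. Rsad2 showed the largest ratio of WT library 3 over WT library 2 among the members, 5.53, from 0.774 to 4.28 CPM. The 21 members at 10 CPM or more had a median log2 ratio of 0.13, and the 16 below it had 1.14, where all genes under 10 CPM had 0.03.

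The spread within WT, as log2 of highest over lowest library, exceeded that within S34F for 30 members and for 63.9% of all genes. Its median over the members was 0.78 in WT and 0.30 in S34F, and over all genes 0.40 and 0.28. At 10 CPM or more the median in WT was 0.34 over the members and 0.33 over all genes. In S34F it was 0.21 and 0.22 at that level. Under 10 CPM it was 1.19 and 0.64 in WT, and 0.72 and 0.58 in S34F. Same-numbered libraries differed in direction. The median log2 ratio of S34F over WT over the members was -0.10 for libraries numbered 1, 0.19 for those numbered 2 and -0.36 for those numbered 3. The numbers of members above 0 were 12, 24 and 7. Over all genes the medians were -0.02, 0.01 and -0.004. WT library 3 was also the deepest, and its part in this pattern was not tested.

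**Figure D3:**
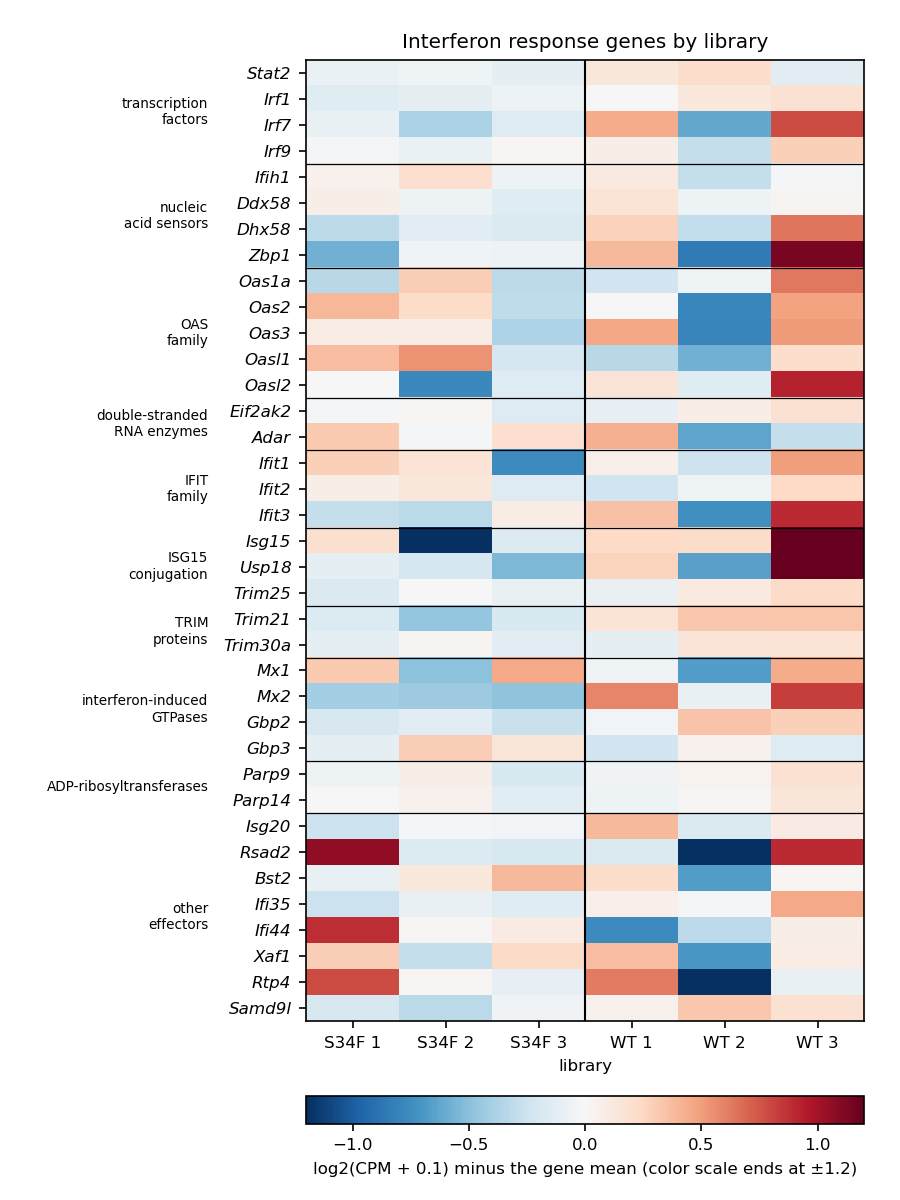
Log2(CPM + 0.1) minus the mean of each gene, for 37 genes grouped by role and 6 libraries, with colours cut at 1.2. WT library 3 is red in many rows and was the highest library for 22 genes, and WT library 2 is blue in many rows and was the lowest for 15.

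**Figure D4:**
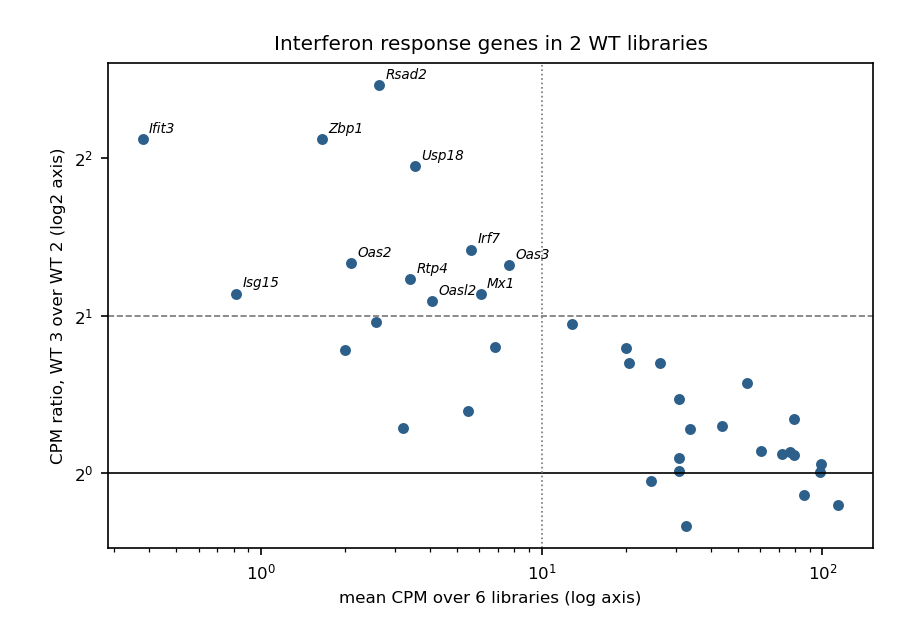
Ratio of WT library 3 over WT library 2 against mean CPM over the 6 libraries, 1 point per gene, on log axes. The 11 named genes above the dashed line at 2 all lie left of the dotted line at 10 CPM.

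Genes of the same pathway outside the 37 were described from lists. Ifna1, Ifna2, Ifna4, Ifnb1 and Ifng are not analysed here. Of 10 JAK, STAT and IRF genes, 8 had values below 0 and 3 had an edgeR unadjusted p under 0.05, all lower in S34F. The share over all genes was 9.1% (4.7% lower). They were Irf4, Irf5 and Irf8, with log2 fold changes of -1.14, -0.49 and -0.42. Irf8, a factor required for dendritic cells and monocytes, was at 303, 276 and 418 CPM in S34F against 455, 441 and 438 CPM in WT. None of the 3 was called by DESeq2.

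Of 6 receptor genes tested, Ifngr2, a chain of the interferon gamma receptor, had a log2 fold change of 0.53 (edgeR unadjusted p = 0.0329, adjusted p = 0.545). The 11 negative regulators had 0 calls by edgeR or DESeq2 and 0 at an unadjusted p under 0.05. Of 13 sensing adaptors, DESeq2 called Tlr3, a receptor for double-stranded RNA, at 0.593, 0.410 and 0.337 CPM in S34F against 2.90, 1.90 and 3.34 CPM in WT. The log2 fold change was -2.60 with a standard error of 0.35, and DESeq2 gave an adjusted p of 1.8e-07. DESeq2 called 0.689% of all genes. Of 29 further interferon-induced genes, 4 had an edgeR unadjusted p under 0.05, all lower, among them Epsti1, Trim34a and Ifitm2. Of 23 interferon gamma GTPase and antigen processing genes, 1 did, Gbp9. Over all genes, 9.1% had an edgeR unadjusted p under 0.05 (4.7% lower).

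Among markers of other cell types, those of conventional dendritic cells differed most between the genotypes. Of 12 conventional dendritic cell markers, 11 had values below 0, with a median log2 fold change of -2.10. DESeq2 called 8 of them, against 0.689% of all genes. The 8 were the MHC class II group genes H2-Aa, H2-Ab1, H2-Eb1 and Ciita, and Zbtb46, Clec9a, Cd209a and Batf3. The summed level of the 12 markers was 292 to 470 CPM in S34F against 558 to 724 CPM in WT. The 10 plasmacytoid dendritic cell markers summed to 426 to 616 CPM in S34F against 589 to 634 CPM in WT. Of the 10, 6 had values above 0 and 4 below, with a median log2 fold change of 0.17. Irf8, described above, is in this list and made up a large part of each sum. Means in S34F and WT were 332 and 445 CPM for Irf8, and 125 and 110 CPM for Tcf4. For Siglech they were 1.79 ± 0.939 and 5.22 ± 2.86 CPM. Megakaryocyte markers summed to 88.9 to 119 CPM and 129 to 176 CPM. All 9 erythroid markers tested had values below 0, with overlapping sums of 25.6 to 32.6 CPM and 28.1 to 65.3 CPM. DESeq2 called 0 plasmacytoid, megakaryocyte or erythroid markers. Summed monocyte, neutrophil, B cell, mast cell and T or natural killer cell markers overlapped between the genotypes, and DESeq2 called 1 gene of these lists, Klrk1, lower in S34F. Myeloid progenitor markers, 10 in number, had 0 calls by edgeR or DESeq2 and 0 at an unadjusted p under 0.05. In bulk RNA, fewer cells of a type and less RNA per cell cannot be told apart, and the part of these cells in the lower values was not tested. WT library 3 was the highest for 0 of 10 plasmacytoid, 2 of 12 conventional dendritic cell and 4 of 8 megakaryocyte markers, against 21% of all genes. In each other marker list it was the highest for 0 to 2 genes. It was the highest for 12 of 29 further interferon-induced genes. For interferon gamma GTPase and antigen processing genes it was 13 of 23, and 0 to 3 genes in each other pathway list.

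Depth was 46827909 to 51862032 gene counts in the S34F libraries and 54727541 to 94562984 in the WT libraries, and the members held 0.113% to 0.130% of them. The lowest count of any member in any library was 6.

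Leaving out 1 library changed the calls. Without WT library 1, edgeR called 1172 genes, 8.42% of those tested, and 3 members. Trim21 and Gbp2 were then lower in S34F, at log2 fold changes of -0.59 and -0.51, and Adar was higher, at 0.62. The edgeR adjusted p was 0.0304 for each of Trim21 and Gbp2 and 0.0434 for Adar. DESeq2 called 5 members and 20.8% of all genes without that library. With both libraries numbered 1 left out, edgeR called 0 members and 4.3% of all genes.

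Splicing was described from junction reads. Of the 361 member junctions, 342 matched an annotated intron, and the other 19 held 0.624% of the reads. In the authors' deposited table, 0 member junctions had an adjusted p under 0.05, the lowest being 0.196, where 0.34% of all junctions did. A further 124 splicing choices in 19 members had at least 20 reads in every library. They were 46 choices between acceptors, 62 between donors and 16 cassette exons. EdgeR, DESeq2 and limma called 0 of the 124, and 5 had an edgeR unadjusted p under 0.05, 4 donor choices (6.41% of all donor choices) and 1 exon (10.8% of all cassette exons), with 0 acceptor choices (7.5% of all). The 4 donor choices were both forms of 2 sites, which share reads. EdgeR called 0% of all acceptor choices, 0.00997% of donor choices and 0.0275% of cassette exons. DESeq2 called 1.27%, 0.804% and 2.14%. DESeq2 gave no adjusted p for 9 of the 16 exons.

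The groups did not overlap for 14 of the 124 member choices (11.3%), where 17% of all acceptor choices, 14.8% of donor choices and 19.7% of cassette exons did not. The lowest p belonged to a coding exon of Ifi44, of 101 nt, at mm9 chr3:151401187-151401287 on the minus strand. Its inclusion was 100%, 87.9% and 96.7% in S34F against 63.6%, 76.5% and 61.3% in WT. All 3 S34F libraries were higher. The means were 94.9 ± 6.27% and 67.1 ± 8.17% (SD, n = 3), a difference of 27.7 points. The edgeR adjusted p was 0.343, and the library with the fewest reads had 27. The choice between donors at the same exon gave an edgeR adjusted p of 0.716 from at least 20 reads.

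The 2 acceptors are shown, since the exon competes with the next one for the upstream donor. Each has 20 intron and 3 exon bases of mm9, with the last 3 intron bases in capitals. The base before the AG, the base U2AF1 is known to contact, was C in both.
Ifi44 101 nt exon, chr3:151401285-151401307, minus strand: tatacatctcttcaacaCAGgca
Ifi44 next exon, chr3:151395515-151395537, minus strand: tttccacttttgtatttCAGctg

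Of the 16 cassette exons, 13 had C before the AG, with 5 included more and 8 less in S34F. The other 3 had T, with 2 included more and 1 less. None was called. The 8 include overlapping forms of an Irf9 exon and of a Parp9 exon that share an acceptor, so they are not independent. The same split over all cassette exons is not given here. An Irf9 exon form of 254 nt, which matches no annotated exon, starts at the same acceptor as the annotated 86 nt exon. Its inclusion counts reads of the junction at that acceptor, which cannot tell the forms apart. Inclusion was 6.76%, 5.19% and 10.8% in S34F against 12.4%, 14.8% and 18.8% in WT (edgeR adjusted p = 0.512). In S34F library 1 the form's own donor had 0 reads. In Oas1a, the donor at position 121357312 had 0%, 0% and 0% of the reads in S34F and 3.77%, 0.546% and 1.29% in WT (edgeR adjusted p = 0.735). Another Oas1a donor, at position 121351817, had 5.36%, 5.53% and 8.75% in S34F against 3.27%, 4.23% and 2.18% in WT (edgeR adjusted p = 0.791). The Irf9 donor at position 56223558 is that of the 254 nt form, so its reads also enter the inclusion given above. It had 0%, 3.45% and 2.97% in S34F against 9.30%, 10.1% and 5.96% in WT (edgeR adjusted p = 0.782). A Trim30a acceptor at position 111578740 had 1.30%, 9.68% and 13.6% against 3.95%, 0% and 0.658%, where the groups overlapped (edgeR adjusted p = 0.696). A listed 0 is not proof of absence, since 402 junctions in the table had 0 reads in one library and 100 or more in another.

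Some exons followed the library number and not the genotype, a pattern noticed after the values were seen. The 89 nt exon of Xaf1, at mm9 chr11:72120066-72120154, was included at 19.5%, 52.5% and 23.4% in S34F against 24.3%, 47.2% and 24.5% in WT. Both libraries numbered 2 stood above the other 4. Xaf1 is a pro-apoptotic gene, and its level was also lowest in those libraries, at 16.0 CPM in S34F and at 12.0 CPM in WT, where the other 4 libraries lay between 20.7 and 25.1 CPM. The 69 nt noncoding exon of Trim21 was included at 82.3%, 95.5% and 85.7% in S34F against 85.3%, 97.3% and 84.5% in WT, again highest in both libraries numbered 2.
Xaf1 89 nt exon acceptor, chr11:72120046-72120068, plus strand: gtgtttctttgtttactCAGgga

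Both libraries numbered 2 lay outside the other 4 for 6 of 16 member exons, against 11.4% of all cassette exons. These 6 include overlapping exons of Trim21 and 2 exons of Xaf1, so they are not independent. For libraries numbered 1 it was 3 of 16 against 9.1%, and for those numbered 3 it was 2 of 16 against 12.6%. For gene levels it was 4, 5 and 2 of 37 members for the numbers 1, 2 and 3, against 19.2%, 14.6% and 5.59% of all genes. The labels do not say what the numbers stand for.

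**Figure D5:**
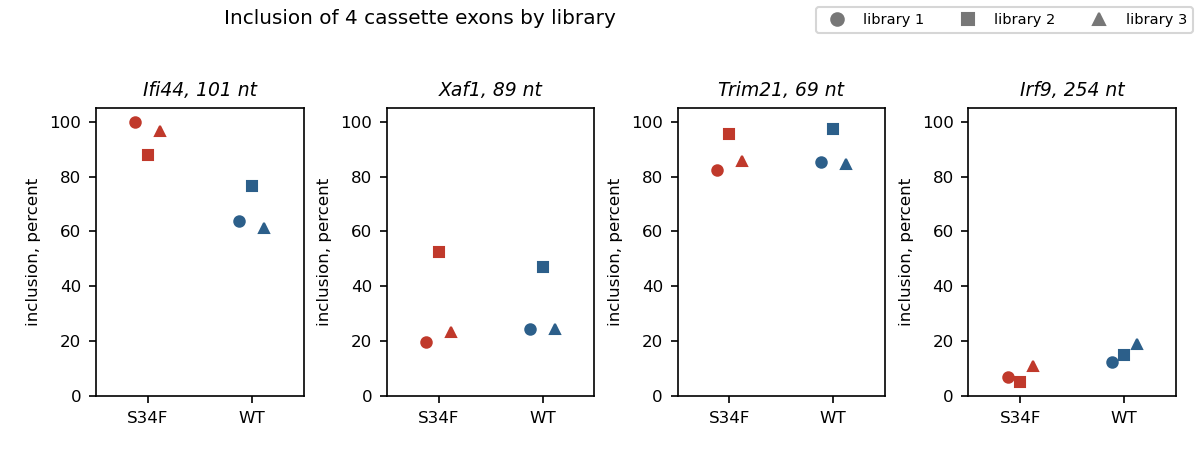
Inclusion in percent of 4 cassette exons in each library, with colours for genotype and symbols for the library number. Ifi44 is higher in the 3 S34F libraries, while the Xaf1 and Trim21 exons are highest in both libraries numbered 2.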

How the data were processed

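Reads came from rRNA-depleted, strand-specific libraries, 2 x 100 bp, per the labels' protocols, and were aligned to mm9 with TopHat 2.0.8, per the series text. The submitters' processing notes name Cufflinks 2.1.1 and HTSeq 0.5.4p1 without a role, and no source says whether counting used the strand. Per the file headers, the authors' tables hold raw counts per gene and per junction, FPKM per gene, and their own log2 fold changes, ratios of fold, p-values, scores and signal, used only where named. Here counts were tested with edgeR 4.0.16 (TMM, default filter, quasi-likelihood) and DESeq2 1.42.0, in R 4.3.3, adjusted over all features by Benjamini-Hochberg at 0.05. Splicing used limma 3.58.1 as well, with 2 counts per library. A choice needed 20 reads in every library. Printed junction positions are exon bases (99.985% GT-AG after a shift of 1 base). Genotypes came from titles, since the genotype entry read S34F in all samples. Members and lists were chosen with earlier results of these data known. All members are named, with values in every library for those called, not overlapping, or highest in FPKM. Same-numbered libraries correlated at 0.22, 0.28 and 0.03 across genes, and differently numbered S34F and WT libraries at -0.31 to 0.09. For each library these values nearly offset one another. Lower values between different numbers are therefore no separate comparison. The main tests did not use the numbers as pairs, and whether the numbers mark a shared factor was not tested. The tests were tried on simulated data. There edgeR called almost no changed splicing choice at the larger noise level tried, and a smaller noise level was added after that was seen, so a count of 0 splicing calls by edgeR does not show that no choice changed. Alternatives were another tool or scaling, no filter, a replicate block, and each library left out.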

Additional observations from a re-analysis of the deposited data

Results flagged for a closer look

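A junction in Oas1a of 3 positions, too short to be an intron, had 18 reads in S34F library 1 and 17 in S34F library 3. It had 0 in S34F library 2 and in each WT library. It is listed here because it had reads in 2 S34F libraries and in no WT library, and because it entered none of the choices between acceptors, donors or cassette exons. In the authors' deposited table its adjusted p was 0.196, the lowest of the member junctions. Of 118 junctions of 10 or fewer positions in the table, 66 had 0 reads in some library, 4 had 0 in all WT libraries and 4 had 0 in all S34F libraries.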

How the results depend on the processing

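Over all genes, edgeR called 0. The replicate block gave 5 and leaving out a library 0 to 1172. DESeq2 called 96, 444 with the replicate block, and, in turn without S34F replicate 1, 2 and 3 and WT replicate 1, 2 and 3, 68, 55, 90, 2501, 78 and 43. Without both libraries numbered 1, edgeR called 599 genes and DESeq2 1722. EdgeR called 0 members, 0 with the replicate block, and 0 to 3 without a library. DESeq2 called 1, 1 with the replicate block, 0 to 5 without a library, and 4 without both libraries numbered 1. Acceptor choices called were 376 by DESeq2 and 59 by limma. Donor choices were 242 and 66, 0 with the replicate block, and 0 to 5 without a library. Cassette exons were 98 and 0, 0 with the replicate block, and 0 without any library. The cause was not tested.

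Of 407 alternative log2 fold changes of members, 385 kept direction and side of the threshold, and 18 in 10 members changed sign. Leaving out a library gave -0.20 to 0.078 for Irf9, -0.49 to 0.054 for Oas1a, -0.14 to 0.50 for Oas2, -0.39 to 0.078 for Ifit1 and -0.077 to 0.17 for Ifit2. It gave -0.075 to 0.48 for Mx1, -0.25 to 1.09 for Rsad2, -0.14 to 0.35 for Xaf1 and -0.017 to 0.87 for Rtp4. Without both libraries numbered 1, Oas2 was -0.011, Ifit2 -0.10, Isg20 0.011 and Rsad2 -0.36. The DESeq2 fits that left out libraries or had the block, and the count of members highest in WT library 3 (22 under DESeq2 size factors too), were added after the data were seen.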
